A study of Homo sapiens with 4 samples.

Results

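MALAT1, NEAT1, TUG1 and KCNQ1OT1 are long noncoding RNAs that stay wholly or largely in the nucleus. They are 4 of the 23284 gene symbols measured in A375, a human melanoma cell line. They were chosen by name, and MALAT1 was picked because its level was higher in the MAGE-A1 knockdown library while other long transcripts were lower there. The knockdown values below are therefore a description.

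The study sequenced poly(A)-enriched RNA on the Ion Torrent platform from 4 stably transfected A375 lines, with 1 library each. The overexpression line carried pcDNA3-MAGE-A1, and its control carried the empty pcDNA3 vector. The knockdown line carried pRNAT-shMAGE-A1, a plasmid for a short hairpin RNA against MAGE-A1, and its control carried pRNAT-scramble. Whether a line was 1 clone or a pool is not given in the sources used here. MAGE-A1 is a cancer-testis antigen, a protein made in the germ line and in many tumours, and the series title sets it in a network of C-JUN, IL8 and ARHGAP29. With 1 library per group no difference has a replicate check, no test was possible, and every difference compares libraries, not conditions. Levels are in RPKM, a read count scaled to transcript length and library size.

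MALAT1 is one of the most abundant nuclear RNAs and collects in nuclear speckles, bodies rich in splicing factors. RNase P cuts its precursor just upstream of a tRNA-like structure, which is released as the small cytoplasmic mascRNA. The mature RNA therefore ends not in a poly(A) tail but in an A-rich run encoded in the genome, which pairs with T-rich (in RNA, U-rich) stretches upstream and protects the end. NEAT1 has a short form with a poly(A) tail and a long form that ends the way MALAT1 does, and the long form is the scaffold of paraspeckles. TUG1 is a polyadenylated RNA found in nucleus and cytoplasm. KCNQ1OT1 is transcribed from the paternal chromosome, antisense to KCNQ1, and silences imprinted neighbours such as CDKN1C.

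In GRCh38 coordinates, MALAT1 lies at chr11:65497738-65506516, and NEAT1 lies upstream of it at chr11:65422798-65445540, both on the plus strand. TUG1 lies at chr22:30969265-30979395 on the plus strand. KCNQ1OT1 lies at chr11:2608328-2699994, inside KCNQ1 (chr11:2445008-2849105) and antisense to it. The deposited values were made on hg19 and hold no coordinates, so these places come from RefSeq and not from the files. The longest GENCODE transcripts measured 8708 nt for MALAT1, 22743 nt for NEAT1, 7469 nt for TUG1 and 91667 nt for KCNQ1OT1.

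The 3′ ends are shown because they set how each RNA ends, and poly(A) enrichment acts on that end. They were read from GENCODE 29 transcripts, 5′ to 3′. In the MALAT1 and NEAT1 ends, capitals mark a 16-base run found in both and the A-rich end. In the TUG1 end, capitals mark AATAAA, the poly(A) signal hexamer.
MALAT1 before the mascRNA, chr11:65506017-65506116, plus strand: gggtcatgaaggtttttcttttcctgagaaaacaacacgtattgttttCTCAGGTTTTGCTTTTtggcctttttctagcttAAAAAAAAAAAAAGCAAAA
mascRNA, chr11:65506117-65506174, plus strand: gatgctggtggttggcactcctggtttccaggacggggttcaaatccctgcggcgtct
NEAT1 long transcript end, chr11:65445441-65445540, plus strand: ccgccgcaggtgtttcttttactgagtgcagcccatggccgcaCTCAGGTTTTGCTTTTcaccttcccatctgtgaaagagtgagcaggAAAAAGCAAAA
TUG1 transcript end, chr22:30979366-30979395, plus strand: tattttaAATAAAgaatttttaaaattaaa
The MALAT1 and long NEAT1 ends shared their last 11 bases as well as the 16-base run. The A-rich end of MALAT1 was 19 bases long.

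The depth of each library was estimated from the steps between low RPKM values, at 24530000 reads for vector, 12630000 for overexpression, 16350000 for scramble and 19640000 for knockdown. The targeted gene, MAGEA1, had 1.80 RPKM in vector and 126 RPKM in overexpression. It had 0.767 RPKM in scramble and 0.473 RPKM in knockdown, or about 19 and 14 reads. The knockdown level was 0.616 times the scramble level, with a 95% interval of 0.285 to 1.29, so a lower MAGEA1 level was not detectable at this depth. The 2 controls stood further apart, since MAGEA1 in scramble was 0.426 times its level in vector (95% interval 0.241 to 0.717). All such intervals are exact for the estimated reads and cover counting error only. The melanocyte lineage factor SOX10 had between 281 and 336 RPKM, and the pigment genes PMEL, MLANA, TYR and TYRP1 were below 1 RPKM in all libraries. Other genes of that 12-gene lineage list differed between libraries, with 1 of 7 measured higher and 2 lower in the overexpression pair and 0 of 8 higher and 3 lower in the knockdown pair. Of all genes, 10.6% were higher and 7.28% lower in the overexpression pair, and 12.4% and 8.52% in the knockdown pair. NGFR, a neural crest receptor, had ratios of 1.94 and -1.83 in these pairs. S100B and S100A1 had -2.29 and -1.30 in overexpression, and DCT, a pigment enzyme, and SOX9 had -2.10 and -1.25 in knockdown. Between the controls, as scramble over vector, NGFR, S100B, S100A1, DCT and SOX9 had ratios of 0.04, -0.83, -0.07, 0.99 and 0.97. SOX9 was low, at 0.456 RPKM in vector, 1.86 in scramble and 0.204 in knockdown. Small RNA genes held 46.1% of all summed RPKM in vector, 87.1% in overexpression, 29.2% in scramble and 77.7% in knockdown. Ratios are given as log2((RPKM + 1)/(RPKM + 1)), which understates the change of low genes, and a gene was counted as higher or lower at 2-fold where at least 1 of the paired libraries had it at 1 RPKM or above.

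**Figure D1:**
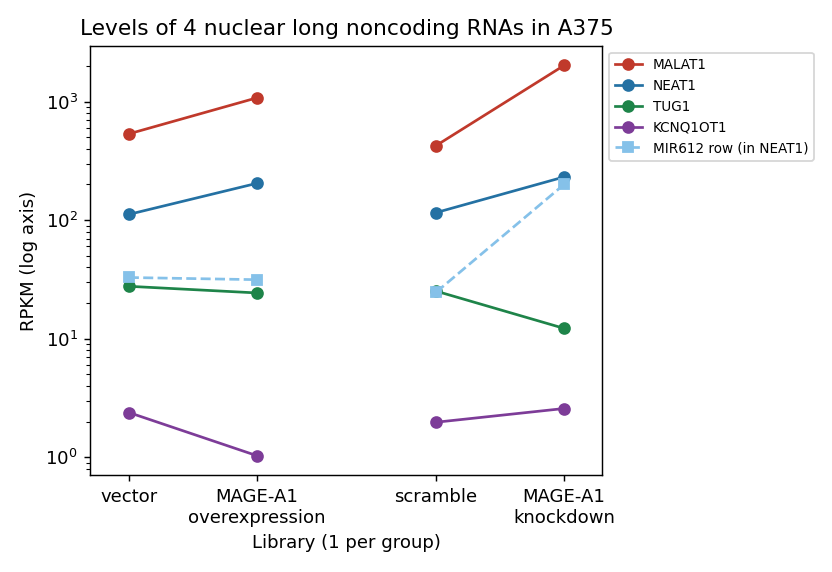
Level of each RNA in RPKM (log axis) in the 4 libraries, with lines joining each construct to its control and dashed squares for the MIR612 row, whose hairpin lies in the long NEAT1 transcript. MALAT1 reaches 2019 RPKM and NEAT1 231 RPKM in the knockdown library, while TUG1 is at its lowest there, at 12.2 RPKM.

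MALAT1, the speckle RNA, had 535 RPKM in vector, 1076 in overexpression, 425 in scramble and 2019 in knockdown. It was high in both construct libraries and low in both controls, and the knockdown library stood highest. In such bulk RNA, fewer cells that make an RNA and less RNA per cell cannot be told apart. Among the 21666 symbols that are not small RNA genes, MALAT1 ranked 59 in vector, 22 in overexpression, 98 in scramble and 16 in knockdown. By the estimated depth it took 0.455% of the reads in vector, 0.916% in overexpression, 0.362% in scramble and 1.72% in knockdown. The last share came to about 337341 reads from a single gene.

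Between knockdown and scramble, MALAT1 was 4.75-fold higher (95% interval 4.70 to 4.79), a log2 ratio of 2.24. This is the value that chose the RNAs. It was the 1 RNA of the 4 called higher at 2-fold, in a pair where 12.4% of 13569 genes were called higher and 8.52% lower (21% in either direction). Of all genes in that pair, 97.0% had a lower ratio. Of the calls in that pair 59.4% were higher, or 41.1% with libraries rescaled to the median of genes used by every cell. The MALAT1 ratio was 2.04 on that scale. Measured against the vector library in place of scramble, the MALAT1 ratio was 1.92.

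Between overexpression and vector, MALAT1 was 2.01-fold higher (95% interval 2.00 to 2.03), a log2 ratio of 1.01 at the very edge of the 2-fold threshold. It was the 1 RNA of the 4 called higher, in a pair where 10.6% of 13577 genes were called higher and 7.28% lower (17.9% in either direction). The higher calls made up 59.3% of the calls in this pair, or 69.6% on the scale of genes used by every cell, where the MALAT1 ratio was 1.16. The MALAT1 call was lost when the libraries were rescaled to a common upper quartile, where the ratio was 0.90, and when a trend on length and GC content was removed, where it was 0.88. Between the 2 controls, MALAT1 in scramble was 0.796 times its level in vector (95% interval 0.788 to 0.804), a log2 ratio of -0.33. None of the 4 RNAs passed 2-fold between the controls, where 2.68% of 13326 genes did (0.893% higher and 1.79% lower).

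NEAT1, the paraspeckle RNA, had 112 RPKM in vector, 205 in overexpression, 116 in scramble and 231 in knockdown. Like MALAT1 it was higher in both construct libraries than in both controls, and the controls lay close together. Its rank among genes that are not small RNAs was 529, 280, 551 and 367 in vector, overexpression, scramble and knockdown. NEAT1 was 1.83-fold higher in overexpression than in vector (95% interval 1.77 to 1.88), a log2 ratio of 0.86, and was not called at 2-fold. It was 2.00-fold higher in knockdown than in scramble (95% interval 1.94 to 2.06), a log2 ratio of 0.99 that fell just under the threshold. The NEAT1 ratio between the controls was 0.05, and it turned to -0.05 when libraries were rescaled to the median of genes used by every cell. The NEAT1 intervals rest on reads estimated at the 3441 nt of a short transcript, since the length by which its RPKM was scaled is unknown.

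The files hold 1 row for NEAT1 and do not separate its short and long forms. A second row, MIR612, was looked at after its values were seen. The MIR612 hairpin (chr11:65444458-65444557, 100 nt) lies within NEAT1 and is covered by 1 of its 8 GENCODE transcripts, the long one. It starts 17945 nt beyond the end of the last short transcript and ends 983 nt before the long end. MIR612 had 32.8 RPKM in vector, 31.5 in overexpression, 24.6 in scramble and 200 in knockdown, so the knockdown library alone stood high. Knockdown was 8.12-fold above scramble, from at most 393 and 40.3 reads. The 95% interval at those counts was 5.90 to 11.6, and with fewer reads it would be wider. Overexpression was 0.959 times vector (95% interval 0.640 to 1.42, again at the most reads possible), a difference not detectable at this depth. Reads of the hairpin and reads of the long NEAT1 transcript cannot be told apart in this row. Of the 116 microRNA genes measured in the knockdown pair, 67 (57.8%) were higher and 36 (31.0%) lower at 2-fold, beside 12.4% and 8.52% of all genes. Such rows also differed between the controls, as scramble over vector, with 24 of 117 (20.5%) higher and 62 (53.0%) lower. Of all genes there, 0.893% were higher and 1.79% lower, and MIR612 had a ratio of -0.40. The part of these microRNA differences in the MIR612 knockdown value was not tested.

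TUG1 had 27.7 RPKM in vector, 24.3 in overexpression, 25.2 in scramble and 12.2 in knockdown. The first 3 libraries lay within a narrow range and the knockdown library stood below them. Knockdown was 0.485 times scramble (95% interval 0.457 to 0.515), a log2 ratio of -0.99 that narrowly missed the 2-fold call, and 8.77% of genes had a lower ratio. Overexpression was 0.879 times vector (95% interval 0.836 to 0.924), a log2 ratio of -0.18. The TUG1 ratios thus had the opposite sign to those of MALAT1 and NEAT1 in both pairs, but in overexpression the difference was small. Between the controls TUG1 had a ratio of -0.13, and its overexpression ratio was -0.03 on the scale of genes used by every cell. With the length and GC trend removed, its knockdown ratio was -0.45.

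KCNQ1OT1, the imprinted antisense RNA, had 2.39 RPKM in vector, 1.03 in overexpression, 1.98 in scramble and 2.58 in knockdown. The overexpression library was the low one. Overexpression was 0.432 times vector (95% interval 0.406 to 0.461), a log2 ratio of -0.74 on the scale with a pseudocount of 1 and of -1.14 with a pseudocount of 0.1. Knockdown was 1.31 times scramble (95% interval 1.25 to 1.37), a log2 ratio of 0.27. Whether the counting used strand is not given in the sources used here, so reads of KCNQ1OT1 and of KCNQ1 introns cannot be told apart. KCNQ1 itself was listed at 0 in vector, overexpression and scramble and at 0.0181 RPKM in knockdown.

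Ratios between these RNAs within 1 library do not depend on how libraries are scaled. MALAT1 stood at 4.78 times NEAT1 in vector, 5.26 times in overexpression, 3.67 times in scramble and 8.72 times in knockdown. MALAT1 over NEAT1 was thus similar in vector and overexpression, and highest in knockdown. MALAT1 over TUG1 was 19.3 in vector, 44.2 in overexpression, 16.9 in scramble and 165 in knockdown. NEAT1 over TUG1 was 4.04, 8.41, 4.59 and 18.9 in the same order. Both ratios to TUG1 were higher in each construct library than in its control. The order of the levels, MALAT1 above NEAT1 above TUG1 above KCNQ1OT1, was the same in all 4 libraries.

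**Figure D2:**
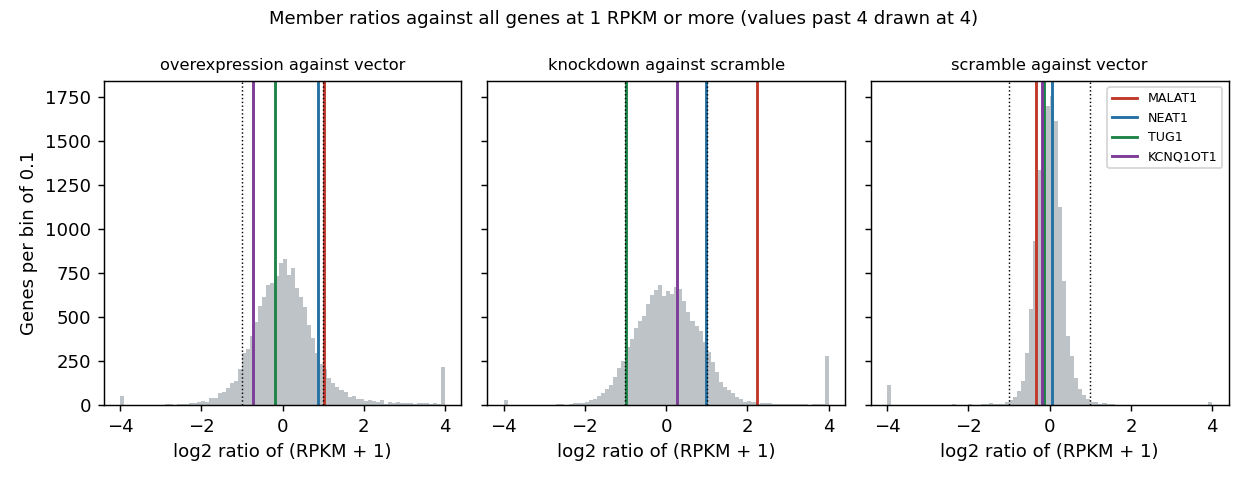
Grey bars count genes by log2 ratio of (RPKM + 1) in each pair, coloured lines mark the 4 RNAs, and dotted lines mark 2-fold. MALAT1 lies at 2.24 in the knockdown pair, outside the bulk of genes, and between the controls all 4 RNAs lie between -0.33 and 0.05.

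The knockdown pair held a trend with transcript length. Genes with a longest transcript of up to 500 nt had a median ratio of 1.36, and those over 8000 nt had a median of -0.59. Among the 1072 genes over 8000 nt other than the 4 RNAs, 19 (1.77%) were higher and 285 (26.6%) lower, beside 12.4% and 8.52% of all genes. Of these long genes, 1 had a ratio at or above that of MALAT1 and 20 had one at or above that of NEAT1. NEAT1 is set among them by its long transcript, but the files do not separate its forms. Genes over 2000 and up to 4000 nt, the class of its 3441 nt short transcript, had a median of 0.18, with 9.04% higher and 4.26% lower. MALAT1 was picked for standing apart from other long transcripts in this pair, so its rank describes that choice and is no separate result. The 1 gene was PEX5L, named after its values were seen, at 0.150 RPKM in scramble and 8.41 RPKM in knockdown. TUG1, with a transcript just short of this class, lay on the low side with most long genes. KCNQ1OT1, the longest, had a ratio equalled or exceeded by 127 of the 1072. In the overexpression pair the same length class had a median of 0.11, and 87 of 1092 long genes were at or above MALAT1. With the trend removed, the knockdown ratios were 2.87 for MALAT1, 1.65 for NEAT1 and 0.93 for KCNQ1OT1. NEAT1 then passed 2-fold, also when it was placed at its short length (1.13), while the genes past 2-fold fell from 2844 to 1372.

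**Figure D3:**
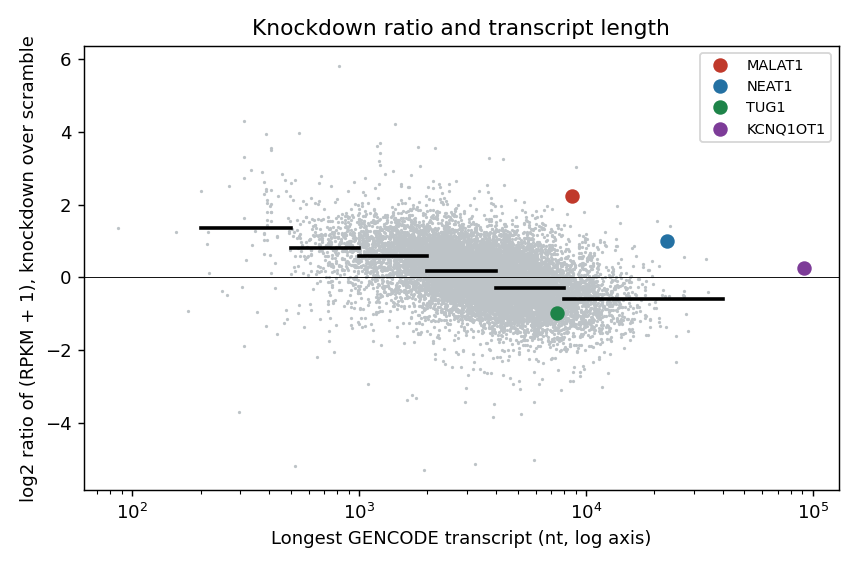
Each grey point is a gene, with the length of its longest GENCODE transcript in nt (log axis) against its log2 ratio of (RPKM + 1), knockdown over scramble, and bars are medians of length classes. The medians fall from 1.36 to -0.59 with length, and MALAT1 at 2.24 and NEAT1 at 0.99 lie above most long genes, with 1 and 20 of the 1072 genes over 8000 nt at or above them. NEAT1 is drawn at its long transcript, and the class of its short one, over 2000 and up to 4000 nt, has a median of 0.18. MALAT1 was picked for this contrast.

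Other long noncoding RNAs were read beside the 4. Of 26 measured from a list of well-known ones, 9 were higher and 1 lower in the overexpression pair, with a median ratio of 0.60, and 7 were higher and 0 lower in the knockdown pair, with a median of 0.52. The medians over all genes were 0.02 and 0.06. The shares over all genes were 10.6% higher and 7.28% lower in the overexpression pair and 12.4% and 8.52% in the knockdown pair. The list is rich in snoRNA hosts, and the wider class differed from it. Of 181 GENCODE long noncoding genes other than the 4 RNAs, 23 (12.7%) were higher and 14 lower in the overexpression pair, with a median of -0.20. In the knockdown pair 30 of 183 (16.4%) were higher and 8 lower, with a median of 0.16, or of -0.14 with the length and GC trend removed. GAS5, a snoRNA host transcript linked to growth arrest, had 199 RPKM in vector, 1087 in overexpression, 169 in scramble and 458 in knockdown. In the overexpression library it stood level with MALAT1. SNHG5, another snoRNA host, had 58.5, 163, 51.9 and 203 RPKM in the same order, and the hosts SNHG8, SNHG6 and SNHG1 were also above their controls in both pairs. DANCR, a host too, was below vector in overexpression (82.8 against 146 RPKM) and above scramble in knockdown (166 against 89.3 RPKM). Of 19 other GENCODE long noncoding genes over 5000 nt in the knockdown pair, 1 was higher and 2 lower, with a median of -0.25, below the ratios of MALAT1, NEAT1 and KCNQ1OT1 and above that of TUG1.

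Some RNAs without a poly(A) tail were, like MALAT1, higher in each construct library than in its control. Of 6 structural RNAs chosen after their values were seen, 6 were higher at 2-fold in both pairs, with medians of 2.15 in the overexpression pair and 3.42 in the knockdown pair. Since the values guided the choice, these counts are a description. Between the controls, as scramble over vector, the median of the 6 was 0.62. There MALAT1 had a ratio of -0.33 and C/D box snoRNA genes had a median of -1.51. RMRP, the RNA of RNase MRP, had 1313 RPKM in vector, 3449 in overexpression, 1669 in scramble and 9573 in knockdown. RNU12, a small nuclear RNA of the minor spliceosome, had 19.2, 1181, 51.9 and 4541 RPKM in the same order. TERC, the telomerase RNA, had 1.47, 12.99, 0.734 and 26.2 RPKM. Histone genes, whose mRNAs mostly lack a tail, were higher for 41 of 63 in the overexpression pair and 53 of 64 in the knockdown pair. Of all genes, 10.6% and 12.4% were higher in these pairs. With the length and GC trend removed, the histone counts were 39 of 63 and 31 of 64, beside 1019 of 12577 and 711 of 12586 genes. C/D box snoRNA genes were higher for 160 of 163 in the knockdown pair, with a median of 5.67. For MALAT1, the knockdown ratio of 2.24 was smaller than that of each of the 6 structural RNAs, the nearest being SCARNA2 at 2.31, and its overexpression ratio of 1.01 was smaller than that of RMRP, the lowest of the 6 at 1.39. With the length and GC trend removed the knockdown order turned, since MALAT1 at 2.87 lay above the 3 structural RNAs that have a length, TERC at 2.71, RPPH1 at 1.74 and RMRP at 1.36. The part of this difference between libraries in the MALAT1 and NEAT1 values was not tested.

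**Figure D4:**
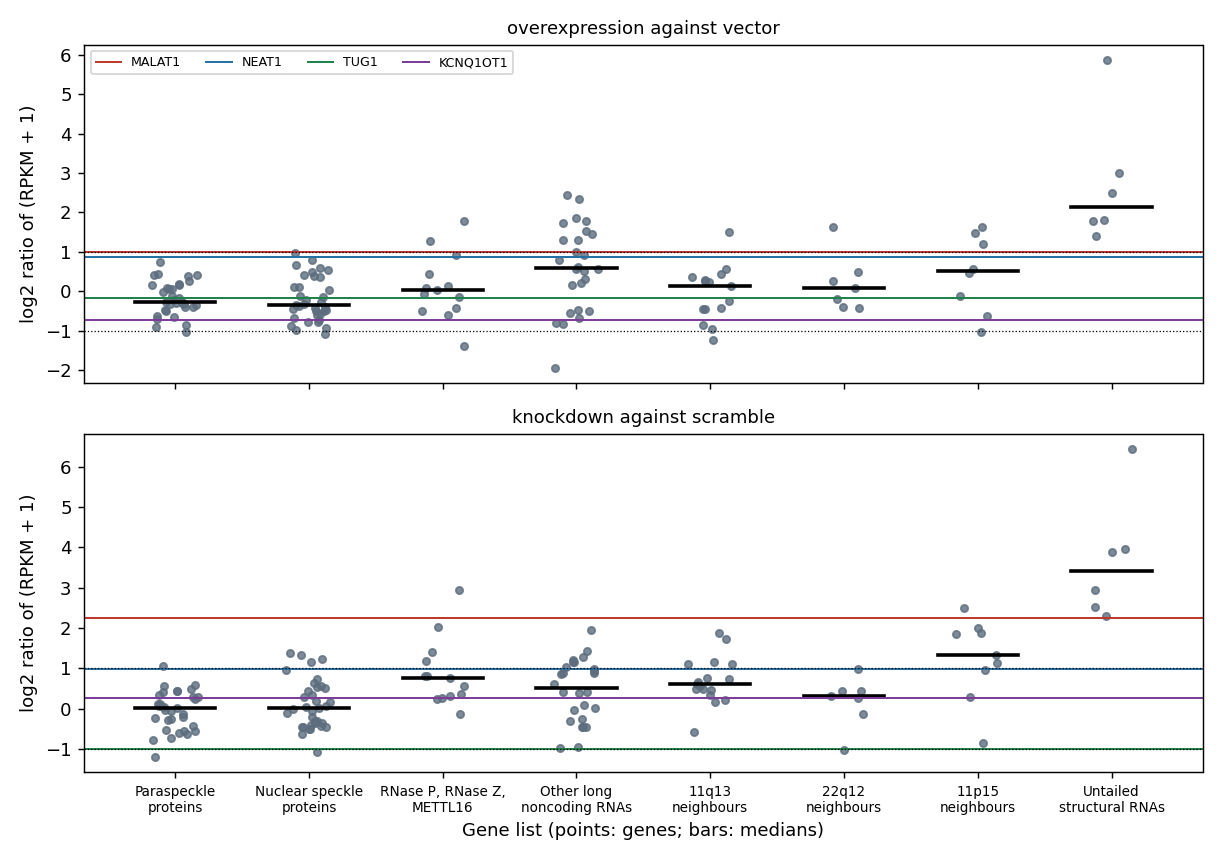
Points are genes of each list, bars are list medians, and coloured lines mark the 4 RNAs, all as log2 ratios of (RPKM + 1) in the overexpression pair (top) and the knockdown pair (bottom). The untailed structural RNAs, chosen after their values were seen, have medians of 2.15 and 3.42. They are the one list drawn wholly above MALAT1 in both pairs. In the knockdown pair this does not hold for the 3 with a length once the length and GC trend is removed. Paraspeckle and speckle proteins scatter around 0 in the knockdown pair, while their medians in the overexpression pair are -0.27 and -0.35.

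The genes of proteins that build paraspeckles on NEAT1 were mostly within 2-fold in both pairs. Of 33 measured, 0 were higher and 1 lower in the overexpression pair, with a median of -0.27, and 1 was higher and 1 lower in the knockdown pair, with a median of 0.03. Most of all genes also lay within 2-fold, with 10.6% higher and 7.28% lower in overexpression and 12.4% and 8.52% in knockdown. NONO, a core paraspeckle protein that binds NEAT1, had 206 RPKM in vector, 109 in overexpression, 182 in scramble and 191 in knockdown. SFPQ, its partner, had 149, 146, 113 and 134 RPKM, and PSPC1, the third of that family, had 30.1, 36.3, 31.3 and 32.6 RPKM. Among these 3 the one sizeable difference was the lower NONO level in overexpression, a ratio of -0.92 short of 2-fold. RBM14 and HNRNPK, also needed for paraspeckles, had ratios of -0.03 and -0.27 in the knockdown pair and of -0.70 and 0.05 in the overexpression pair. The calls were HNRNPA1, a splicing repressor, at -1.03 in overexpression, and RBM12 at -1.19 and AKAP8L at 1.06 in knockdown.

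The genes of speckle proteins, which share the compartment of MALAT1, were also mostly within 2-fold. Of 35 measured, 0 were higher and 1 (2.86%) lower in the overexpression pair, with a median of -0.35, beside 10.6% higher and 7.28% lower of all genes. In the knockdown pair 4 (11.4%) were higher and 1 (2.86%) lower, with a median of 0.03, beside 12.4% higher and 8.52% lower of all genes. SON and SRRM2, which form the core of speckles, had knockdown ratios of -0.44 and -0.49. The splicing factors SRSF1 and SRSF2, of the SR family that MALAT1 is known to bind, had knockdown ratios of -0.34 and -0.50, and SRRM1 had 0.56. PPIG, LUC7L3 and RBM25, which carry arginine-serine-rich stretches, had the largest at 1.37, 1.34 and 1.23. LUC7L3 had 96.0 RPKM in vector, 49.5 in overexpression, 103 in scramble and 263 in knockdown and was thus lowest in overexpression and, like MALAT1, highest in knockdown. RNPS1, an exon junction protein, was the lower call in overexpression at -1.08. With the length and GC trend removed, 7 of the 35 speckle genes were higher and 0 lower in the knockdown pair. Of 12586 genes with that trend removed, 711 were higher and 661 lower.

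Of 13 factors that make or bind the MALAT1 and NEAT1 3′ ends, 4 (30.8%) were higher and 0 lower in the knockdown pair, with a median of 0.76, beside 12.4% higher and 8.52% lower of all genes. RPPH1, the RNA of the RNase P that cuts both precursors, had 58.8 RPKM in vector, 206 in overexpression, 99.6 in scramble and 773 in knockdown, but it is itself one of the untailed RNAs above. The RNase P proteins RPP21, RPP25 and POP5 had knockdown ratios of 2.02, 1.41 and 1.18. With the trend removed the list counted 2 of 13 higher and 0 lower, beside 711 higher and 661 lower of 12586 genes. ELAC2, the RNase Z that trims the mascRNA, had 40.5, 36.3, 45.7 and 55.6 RPKM in vector, overexpression, scramble and knockdown. METTL16, which binds the MALAT1 end, had 12.97, 13.9, 12.2 and 15.3 RPKM, so neither passed 2-fold. In the overexpression pair 2 of the 13 were higher (RPPH1 at 1.79 and RPP40 at 1.27) and 1 was lower (POP5 at -1.38), or 15.4% and 7.69%. Of all genes in that pair, 10.6% were higher and 7.28% lower.

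Of 10 mRNAs known for introns that hold them back in the nucleus, 0 were called in the knockdown pair, where their median was -0.24. In that pair 21% of all genes were called. In the overexpression pair 1 was higher, OGT, the enzyme that adds O-linked GlcNAc, with 63.8 RPKM in vector, 173 in overexpression, 57.1 in scramble and 29.6 in knockdown. Of 10 subunits and partners of PRC2 and G9a, chromatin enzymes that TUG1 or KCNQ1OT1 are reported to bind, 0 were called in the knockdown pair. In the overexpression pair JARID2, a PRC2 partner, was higher at 1.62 and EHMT2, which encodes G9a, was lower at -1.96. There 17.9% of all genes were called.

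The genes beside each RNA were read next. Around MALAT1 and NEAT1 on 11q13, 5 of 17 measured genes (29.4%) were higher in the knockdown pair and 0 lower, with a median of 0.61. Of all genes in that pair, 12.4% were higher and 8.52% lower. With the length and GC trend removed, however, 1 of the 17 neighbours was higher and 1 lower, with a median of 0.16. On that scale 711 of 12586 genes were higher and 661 lower. FRMD8, which adjoins NEAT1, had 33.0 RPKM in vector, 45.1 in overexpression, 30.1 in scramble and 69.0 in knockdown. FRMD8 was thus highest in knockdown, as NEAT1 was. The largest 11q13 ratios in knockdown were 1.89 for SLC25A45 and 1.74 for SSSCA1. In the overexpression pair 1 of 15 was higher (CDC42EP2 at 1.50) and 1 lower (MAP3K11 at -1.24), or 6.67% each, beside 10.6% and 7.28% of all genes.

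MORC2 and SMTN, the neighbours of TUG1 on 22q12, did not share its lower level in knockdown. MORC2, a chromatin ATPase, had 14.5 RPKM in vector, 15.5 in overexpression, 16.2 in scramble and 20.6 in knockdown, and SMTN, smoothelin, had 21.4, 30.3, 29.5 and 40.5 RPKM. Of 7 measured neighbours 1 was lower in the knockdown pair and 1 was higher in the overexpression pair, both times OSBP2, an oxysterol-binding protein, at -1.02 and 1.64. Each time this was 14.3% of the list, beside 8.52% of all genes lower in knockdown and 10.6% higher in overexpression.

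The 11p15 neighbours of KCNQ1OT1, several of them imprinted, held the highest share of calls among the neighbour lists. In the knockdown pair 6 of 9 (66.7%) were higher and 0 lower, with a median of 1.33, beside 12.4% higher and 8.52% lower of all genes. With the trend removed 4 of the 9 were higher and 1 lower, with a median of 1.00, beside 711 higher and 661 lower of 12586 genes. PHLDA2, an imprinted growth restrainer that KCNQ1OT1 silences on the paternal copy, had 43.6 RPKM in vector, 138 in overexpression, 52.1 in scramble and 212 in knockdown. SLC22A18AS and SLC22A18 had knockdown ratios of 2.50 and 1.88. CDKN1C, a cell cycle inhibitor silenced in the same way, had 8.55, 3.65, 6.90 and 3.42 RPKM and was below its control in both pairs. In the overexpression pair, where KCNQ1OT1 was low, 3 of 8 were higher (PHLDA2 at 1.64, CARS at 1.49 and SLC22A18AS at 1.20) and 1 was lower (CDKN1C at -1.04). Of all genes in this pair, 10.6% were higher and 7.28% lower. PHLDA2, SLC22A18AS and CARS (1.33 in knockdown) were thus higher in both pairs. KCNQ1OT1 itself had ratios of -0.74 in the overexpression pair and 0.27 in the knockdown pair and was called in neither. Whether its level bears on those of its neighbours was not tested.

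The genes with the profile nearest to each RNA were found by the distance between centred log2(RPKM + 1) values over the 4 libraries, among 7563 genes at 5 RPKM or more in every library. The nearest to MALAT1 were ESF1 (15.7, 35.6, 11.7 and 56.5 RPKM in vector, overexpression, scramble and knockdown), RPL13AP6 and CHCHD10, at distances of 0.189, 0.238 and 0.292. The nearest to NEAT1 were RRP9, ICT1 and TOLLIP, at 0.0541, 0.0601 and 0.0765. The nearest to TUG1 were KIAA1429 (25.7, 23.0, 22.7 and 11.4 RPKM), DCTN4 and RASSF3, at 0.0475, 0.0566 and 0.0587. The nearest to KCNQ1OT1 were DSCC1, CD74 and MANEAL, at 0.0523, 0.0676 and 0.0745, where the pseudocount compresses the profile of so low an RNA. With 4 libraries many genes lie near any profile, and MALAT1, with the widest range, had the most distant neighbours of the 4.

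The promoters of MALAT1 and TUG1 are shown because the first was higher and the second lower in the knockdown library, and because C-JUN, named in the series title, binds AP-1 sites. They run from 250 bases before to 50 after the transcription start, from RefSeq on GRCh38.p14, and capitals mark every match to the motifs listed below them.
MALAT1, upstream start, chr11:65497488-65497787, plus strand: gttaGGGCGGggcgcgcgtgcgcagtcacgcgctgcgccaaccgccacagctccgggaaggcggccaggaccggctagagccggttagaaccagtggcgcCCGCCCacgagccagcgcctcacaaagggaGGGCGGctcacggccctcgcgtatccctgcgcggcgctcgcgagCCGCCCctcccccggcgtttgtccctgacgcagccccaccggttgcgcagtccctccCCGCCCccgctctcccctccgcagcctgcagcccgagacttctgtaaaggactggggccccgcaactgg
TUG1, chr22:30969015-30969314, plus strand: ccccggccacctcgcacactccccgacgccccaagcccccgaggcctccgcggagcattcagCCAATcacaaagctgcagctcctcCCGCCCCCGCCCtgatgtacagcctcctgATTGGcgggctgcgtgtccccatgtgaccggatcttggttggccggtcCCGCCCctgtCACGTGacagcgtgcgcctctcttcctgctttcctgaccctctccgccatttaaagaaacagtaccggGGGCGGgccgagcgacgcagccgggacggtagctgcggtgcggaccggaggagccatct
On both strands, the Sp1 box GGGCGG matched 5 times in the MALAT1 window and 4 times in the TUG1 window, of which 2 lie end to end, and it occurs in 45.0% of 35116 promoters of this length. TUG1 also held 2 CCAAT boxes (in 34.6% of promoters) and 1 E-box CACGTG (7.26%). A second MALAT1 start, chr11:65498795-65499094, held 1 TATAAA (11.5%) and no other match. The AP-1 motif TGANTCA (7.71%) and the CRE TGACGTCA (1.85%) had 0 matches in these 3 windows, which says only that these letters are not there. No motif overlapped another.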

How the data were processed

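Per the labels, RNA of 4 stably transfected A375 lines was extracted with TRIzol, enriched for poly(A) RNA on beads and made into whole-transcriptome Ion Torrent libraries. Whether same-group cultures were repeated or both pairs were prepared together is not given in the sources used here. Per the submitters' processing notes, the tools were Cufflinks 2.2.0, TopHat2 2.0.13, SAMtools 1.1 and Bowtie2 2.2.4, on hg19, with no role or order given. The deposited values are RPKM, 1 per gene symbol and library, per the file headers. The annotation, the strand setting and read counts are not given there.

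Groups came from the sample titles. RPKM ratios used a pseudocount of 1, a minimum of 1 RPKM in either library and a threshold of 2-fold, with no test at 1 library per group. The overexpression and knockdown pairs have separate controls, and the third pair, scramble against vector, shares a library with each. Depth was estimated as the read total that best turned the low RPKM of 2304 genes with 1 transcript over 600 nt into whole reads, with the transcript length less 200 nt. Between 63.4% and 70.4% of values then came within 0.1 of a whole number, where chance gives 20%. Intervals are exact conditional binomial (Clopper-Pearson, 95%). PCR copies are not independent molecules. Lengths and GC content came from GENCODE 29 for 21595 symbols, and the trend was a spline with 5 degrees of freedom. Scripts used Python 3.11.15, pandas 2.3.3, scipy 1.17.1 and patsy 1.0.2, and were tested on simulated data.

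The 4 RNAs, the gene lists and the tests were chosen with earlier results of these data known. Genes were named by a rule: the 4 RNAs, MAGEA1, the leading members of each list, up to 3 members per list and pair with the largest ratio past 2-fold, the genes adjoining each RNA, the 6 most abundant other long noncoding RNAs, and the 3 nearest profiles. Exceptions are given as such, and some single genes that the rule names are not reported here. RefSeq promoters matched 2 of the 4 RNAs. Markers of other cell types were low: PTPRC reached 0.0436 RPKM, and summed fibroblast markers ran from 2.26 to 7.07 RPKM, endothelial from 1.47 to 5.90, keratinocyte from 17.2 to 33.3 (mostly KRT10) and leukocyte from 25.6 to 42.3 (mostly CD68).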

Additional observations from a re-analysis of the deposited data

How the results depend on the processing

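No paired analysis was possible because each group has 1 library and the labels give no replicate numbers, and no replicate could be left out. Of the 4 RNAs, 1 passed 2-fold in the overexpression pair (MALAT1). With a pseudocount of 0.1 the number was 2 (MALAT1 and KCNQ1OT1, lower), with libraries at a common upper quartile 0, at a common median of genes used by every cell 2 (MALAT1 and NEAT1), and with the length and GC trend removed 0. In the knockdown pair 1 passed (MALAT1). The number was 2 with a pseudocount of 0.1, at the common upper quartile and at the common median of genes used by every cell (each time MALAT1 and TUG1), 2 with the trend removed (MALAT1 and NEAT1), and 3 against the vector library or the mean of both controls (MALAT1, NEAT1 and TUG1). The MALAT1 knockdown ratio of 2.24 was 2.19 at the common upper quartile, 2.04 at the median of genes used by every cell and 2.87 with the trend removed. It was 1.92 against vector and 2.07 against the mean of both controls, and thus past 2-fold at each setting. This ratio chose the RNAs and every setting used the same knockdown library, so the range is a description and no separate result. Over the alternatives NEAT1 ran from 0.79 to 1.65 in the knockdown pair and from 0.73 to 1.02 in the overexpression pair. TUG1 ran from -1.18 to -0.45 in the knockdown pair and KCNQ1OT1 from -1.14 to -0.55 in the overexpression pair. Scaling to genes used by every cell moved the median ratio of all genes by 0.14 in the overexpression pair and by -0.18 in the knockdown pair, and the share of calls that were higher from 59.3% to 69.6% and from 59.4% to 41.1%. Over all genes, the 2844 past 2-fold in the knockdown pair became 1372 with the trend removed, where fewer genes had a length. The 357 past 2-fold between the controls became 577 with a pseudocount of 0.1, 74 with the trend removed and 122 without small RNA genes. Beyond such construction, the cause of these shifts was not tested. Depth limits MAGEA1 and MIR612, while for the 4 RNAs the missing replicates limit what the ratios can show.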
